A study of Mus musculus with 6 samples.

Results

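Cells copy, guard and mend their DNA with overlapping sets of proteins, and 9 genes of crosslink and double-strand break repair are described here in the mouse bladder: Fanca, Fancd2, Fanci, Brca1, Brca2, Rad51ap1, Blm, Exo1 and H2afx. They were taken as a list, matched by Ensembl identifier, and make up 9 of the 14450 genes listed in all 6 tables of the series. Each table carries all 9, with H2afx under that symbol throughout. The mice were 8-week-old wild type C57BL/6 animals, and the mucosal layer of the bladder was dissociated for droplet-based single-cell RNA sequencing. Healthy mice received no cyclophosphamide (CPP), acutely injured mice were collected 48 hours after CPP, and chronically injured mice received 4 rounds of CPP over 11 days. Each group gave 2 libraries, prepared from groups of mice of both sexes with more animals than libraries, so that libraries pooled animals.

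CPP is an alkylating drug whose products join the strands of DNA to each other, and its toxic metabolite acrolein collects in urine and strips the urothelium. A crosslink blocks the replication fork. The Fanconi anemia pathway detects the stalled fork: a core complex, of which Fanca is a subunit, attaches ubiquitin to the paired proteins Fancd2 and Fanci, and nucleases then cut the crosslink free. The break that this leaves is mended by homologous recombination, in which Brca1 and Brca2 act on the resected DNA, Rad51ap1 aids strand invasion, the exonuclease Exo1 digests DNA ends and the helicase Blm takes part in resection and dissolves joined molecules. H2afx encodes the histone variant H2A.X, whose phosphorylated form marks the chromatin around a break. Many of these genes are known to be transcribed mainly in dividing cells, in which a sister chromatid is at hand as a template.

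Levels are given in CPM, the UMIs of a gene for every 1000000 UMIs of all cells of a class in a library, where a UMI (unique molecular identifier) tags 1 captured mRNA molecule. They were not divided by gene length, so levels are compared between cells and libraries and not between genes. Promoters of 3 members are shown: that of Rad51ap1, which had the largest fold between cycling and non-cycling cells, that of Brca2, which held an E2F motif, and that of Fanca, which differed between layers. The table of RefSeq promoters used here, on assembly GRCm38.p6, matched 6 of the 9 members, and the 250 bases before the start are given 5′ to 3′ on the strand of the gene. Capitals mark an E2F motif (TTTGGCGC, TTTCCCGC, TTTGCCGC or TTTCGCGC), a CCAAT box (CCAAT) or a GC box (CCGCCC), each searched on both strands with overlaps allowed.
Rad51ap1, chr6:126939588-126939837, minus strand: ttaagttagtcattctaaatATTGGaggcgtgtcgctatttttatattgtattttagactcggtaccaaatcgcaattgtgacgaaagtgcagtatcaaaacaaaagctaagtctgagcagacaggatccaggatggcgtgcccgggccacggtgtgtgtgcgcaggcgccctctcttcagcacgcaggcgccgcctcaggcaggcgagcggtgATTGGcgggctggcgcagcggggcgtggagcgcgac
Brca2, chr5:150522371-150522620, plus strand: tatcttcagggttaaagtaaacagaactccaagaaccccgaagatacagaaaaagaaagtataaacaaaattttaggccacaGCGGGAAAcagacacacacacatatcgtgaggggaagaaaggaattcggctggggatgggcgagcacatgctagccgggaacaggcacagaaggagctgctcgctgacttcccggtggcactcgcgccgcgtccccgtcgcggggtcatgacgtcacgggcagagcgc
Fanca, chr8:123318577-123318826, minus strand: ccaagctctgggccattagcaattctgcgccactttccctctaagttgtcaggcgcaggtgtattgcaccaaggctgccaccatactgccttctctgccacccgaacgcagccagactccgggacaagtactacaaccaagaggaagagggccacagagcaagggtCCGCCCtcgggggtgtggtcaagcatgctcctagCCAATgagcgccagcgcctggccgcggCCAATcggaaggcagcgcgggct
The Rad51ap1 promoter holds CCAAT boxes that begin 230 and 36 bases before the start, and that of Fanca holds them at 50 and 23 bases with a GC box at 84. Brca2 carried the E2F motif at 168 bases and was the only 1 of the 6 members with it. Among 32851 mouse promoters of this length 1.86% held the E2F motif, 33.85% a CCAAT box (4 of 6 members) and 32.74% a GC box (3 of 6). The cell cycle homology region (TTTGAA or TTCGAA) occurred in 17.15% of promoters and in 0 of the 6. A match describes the letters and is not evidence of binding.

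On GRCm38, Fanca (ENSMUSG00000032815) lies at chr8:123268300-123318576 and Fancd2 (ENSMUSG00000034023) at chr6:113531682-113597017. Fanci lies at chr7:79391929-79450264, Brca1 at chr11:101488764-101551955 and Brca2 at chr5:150522630-150570329. Rad51ap1 is at chr6:126923050-126939587, Blm at chr7:80454733-80535119, Exo1 at chr1:175880581-175913489 and H2afx at chr9:44334694-44336077. Fanca overlaps Zfp276, Fancd2 overlaps Fancd2os, Fanci overlaps Polg and Brca2 overlaps the antisense gene Gm42529, in each case on the opposite strand. Blm and Rad51ap1 overlap the processed pseudogenes Ndufab1-ps and Gm17808, also on the opposite strand. The authors counted with Cell Ranger, and its use of strand is not given in the sources used here. The part of opposite-strand partners in the levels was not tested.

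The libraries held 54604109 to 111985678 UMIs with a median of 5530 to 9138 UMIs per cell, and 50066 cells were kept. Pairs of libraries shared 36 to 229 cell barcodes, at most 2.28% of a library. Clusters were named from marker genes, and 37516 cells were urothelial-like, called urothelial below. Nothing in the labels ties a library to 1 animal, so p-values measure only the spread between libraries. With 2 libraries against 2, an exact permutation test could not go below p = 0.3333 and was not used. The markers of mesenchymal cells summed to 215.4 CPM in urothelial cells of acute replicate 1 and 924.5 CPM in those of acute replicate 2, and their part in the results below was not tested.

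A urothelial cell was called cycling when its S phase or its G2/M score lay more than 2 median absolute deviations (MADs) above the median over all cells. The scores used 37 S phase and 54 G2/M genes, from which all repair genes had been taken out, so no member helped to choose the cells in which it was measured. Cycling cells made up 4.67% and 5.99% of urothelial cells in the healthy libraries, 26.8% and 12.8% in the acute libraries and 10.6% and 8.13% in the chronic libraries. Sub-clusters with 100% and 99.1% cycling cells held 80 and 14 cells of healthy replicate 1, against 258 cycling cells in all. For healthy replicate 2 these were 35 and 8 against 404. For acute replicate 1 they were 574 and 385 against 1551, and for acute replicate 2 172 and 159 against 773. Outside acute replicate 1 most cycling cells thus lay in mainly non-cycling sub-clusters, and the part of this in the levels was not tested. Of all urothelial cells, 5.95% lay within 0.5 MADs of the S phase threshold and 5.38% within 0.5 MADs of the G2/M threshold.

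All 9 members rose in cycling against non-cycling urothelial cells, where 13.8% of the 13639 genes tested rose. Exo1 and Rad51ap1, very low outside the cycle, met edgeR's filter on low counts mainly through their cycling sums. Rad51ap1, Exo1 and Blm also came from the S phase list. For these members the rise was largely set in advance, so the count of 9 is not support for a rise of the list. The log2 fold changes of the members had a median of 3.05, against -0.04 over all genes. In each of the 6 libraries each member was higher in the cycling cells. Tests were edgeR's quasi-likelihood test on UMIs summed per library and class, with the library as a block and Benjamini-Hochberg adjustment over all genes tested, and a gene is called higher or lower when its adjusted p is below 0.05.

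Of the Fanconi members, Fanca of the core complex stood at 8.84 and 6.79 CPM in cycling cells of the healthy libraries, 16.9 and 10.3 CPM in those of the acute libraries and 10.3 and 11.2 CPM in those of the chronic libraries. Non-cycling cells held 1.62 to 3.46 CPM, and the log2 fold change was 2.01 (SE 0.16, adjusted p = 1.036e-07). Cycling cells of every library thus lay above all non-cycling sums. Fancd2, which receives the ubiquitin mark, had 19.7 and 9.88 CPM in healthy, 28.5 and 22.9 CPM in acute and 15.5 and 34.9 CPM in chronic cycling cells, against 5.43 to 8.67 CPM in non-cycling cells. Its log2 fold change of 1.62 (SE 0.15, adjusted p = 5.446e-07) was the smallest estimate of the 9. The highest non-cycling level of Fancd2 lay just under its lowest cycling level, that of healthy replicate 2. Its partner Fanci reached 9.52 and 2.47 CPM in healthy, 19.9 and 13.5 CPM in acute and 7.02 and 10.9 CPM in chronic cycling cells and stayed at 0.455 to 1.36 CPM in the others. Its log2 fold change was 3.73 (SE 0.23, adjusted p = 3.636e-09). Both partners of the ubiquitinated complex thus rose.

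The recombination members rose as well. Brca1, which promotes resection, measured 12.2 and 2.47 CPM in healthy, 18.5 and 17.5 CPM in acute and 9.53 and 14.6 CPM in chronic cycling cells. Non-cycling cells gave 0.954 to 1.94 CPM, and the log2 fold change was 3.09 (SE 0.23, adjusted p = 2.99e-08). The 2 healthy libraries differed severalfold from each other, with healthy replicate 2 the lower. Brca2, which acts after resection, was at 4.76 and 4.94 CPM, 13.1 and 14 CPM and 9.78 and 8.25 CPM in the cycling cells of the same 3 groups and at 0.839 to 1.36 CPM in non-cycling cells. Its log2 fold change was 3.05 (SE 0.20, adjusted p = 5.643e-09). Here the libraries of each group lay close together.

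Rad51ap1 had the largest fold of the 9. Its cycling level was 9.52 and 5.56 CPM in healthy, 19.1 and 26.8 CPM in acute and 12.5 and 15.7 CPM in chronic libraries, and non-cycling cells held 0.0323 to 0.606 CPM. The log2 fold change was 5.69 (SE 0.20, adjusted p = 4.851e-12), about 51.7-fold. Only 4 UMIs of Rad51ap1 came from non-cycling cells of both healthy libraries together, against 23 from their far fewer cycling cells. Exo1 followed, with 2.72 and 3.71 CPM in healthy, 7.98 and 5.67 CPM in acute and 2.76 and 4.12 CPM in chronic cycling cells. Its non-cycling level of 0.0636 to 0.214 CPM rested on 2 to 5 UMIs per library, and the log2 fold change was 5.24 (SE 0.28, adjusted p = 5.1e-10). As 3 UMIs amount to 0.091 to 0.128 CPM in non-cycling cells (counting error only), Exo1 in all libraries and Rad51ap1 in the healthy ones were near the limit of detection there.

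Blm, the helicase, was found at 6.80 and 3.71 CPM in healthy, 13.1 and 9.21 CPM in acute and 10.5 and 5.25 CPM in chronic cycling cells and at 1.18 to 2.42 CPM in the rest. The log2 fold change was 2.29 (SE 0.23, adjusted p = 1.283e-06). Its lowest cycling level, in healthy replicate 2, was the closest of its values to the non-cycling range. H2afx stood at 145.5 and 42 CPM in healthy, 98.1 and 151.9 CPM in acute and 66.0 and 73.1 CPM in chronic cycling cells, and at 12.9 to 20.4 CPM in non-cycling cells. It rose by a log2 fold change of 2.46 (SE 0.17, adjusted p = 1.891e-08). The healthy libraries bracketed the others except acute replicate 2, which lay just above them.

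**Figure D1:**
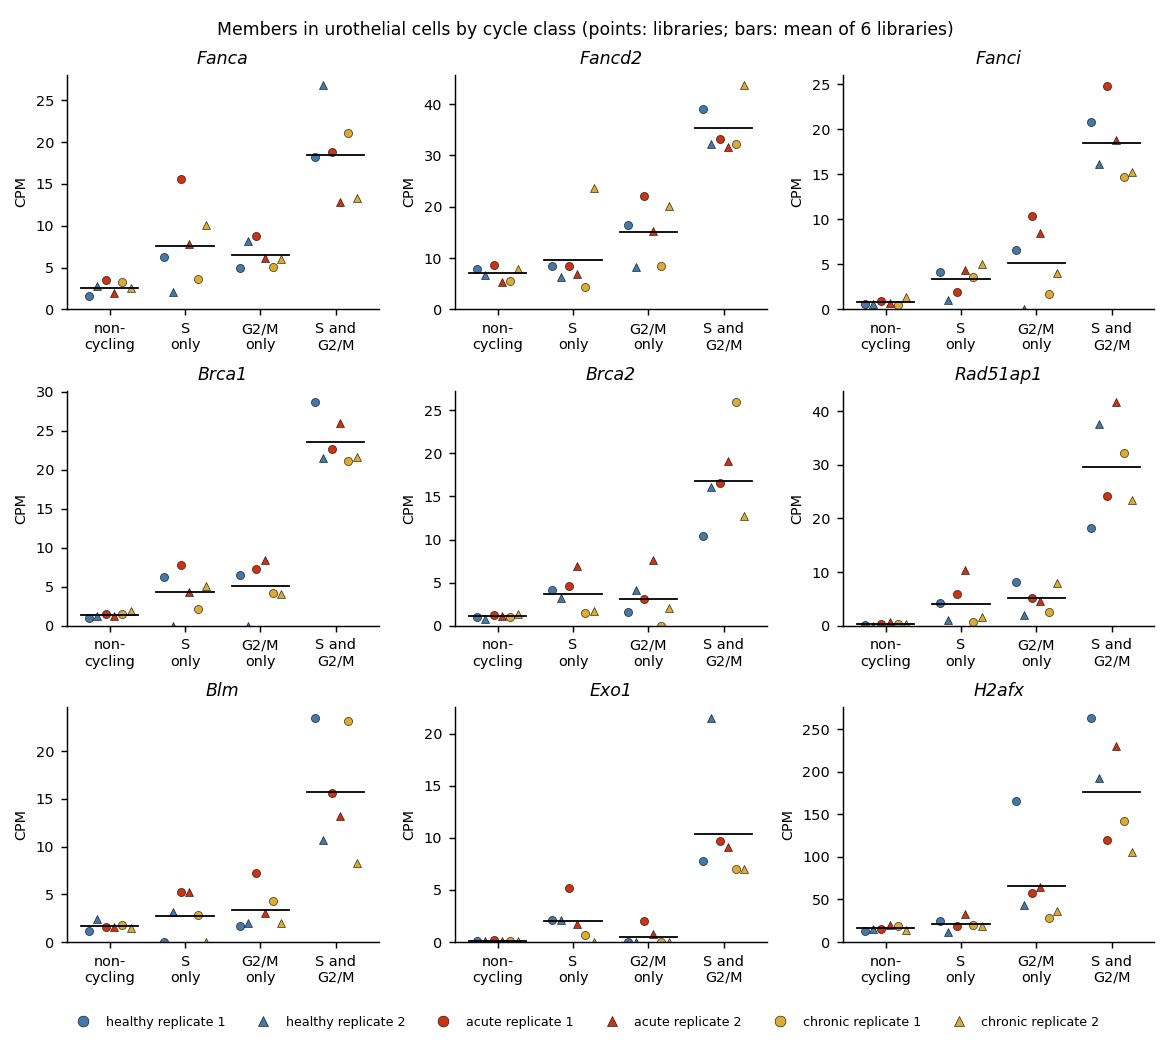
Level of each of the 9 members (CPM, linear axis from 0) in urothelial cells that were non-cycling, past the S threshold only, past the G2/M threshold only or past both thresholds. Points are libraries, bars are means of 6 libraries, and Fanci ranges from 0.455 to 1.36 CPM in non-cycling cells and from 14.7 to 24.8 CPM in cells past both thresholds.

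Of 76 other repair genes 46 rose and 2 fell, where 13.8% of all genes rose and 15.6% fell, and their median log2 fold change was 0.46. Among 17 recombination genes 15 rose (median 2.61). In non-cycling cells alone only 13 of these 17 had enough UMIs to be tested. Of 10 genes of end joining, the pathway that needs no template, 2 rose and 1 fell (median 0.17), shares near those of all genes. The difference between these lists was not tested. Of 13 further Fanconi genes 8 rose, with a median of 0.44. Among the 46 genes that rose were the recombination helicase Brip1 (4.18, adjusted p = 3.165e-11) and the Fanconi gene Ube2t, the ubiquitin-conjugating enzyme for Fancd2 (3.64, adjusted p = 5.1e-10). Xrcc5, which encodes the Ku80 subunit that holds ends for joining, fell by 0.44 on the log2 scale (adjusted p = 0.002914), a call lost without the library block (adjusted p = 0.3224). Trp53bp1, which restrains resection, fell by 0.23 (adjusted p = 0.04725), a call that was lost in DESeq2 (adjusted p = 0.09925), without TMM factors (adjusted p = 0.1589), without the library block (adjusted p = 0.3593) and when any 1 of 5 libraries was left out (adjusted p = 0.06429 to 0.1997). The rises of the 9 members were called under each of the alternatives tried.

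Cycling cells were then divided by the thresholds they passed. Cells past both thresholds made up 20.2% and 8.17% of cycling cells in the healthy libraries, 63.8% and 40.8% in the acute libraries and 24.4% and 42.5% in the chronic libraries. In these cells the 8 members other than H2afx summed to 166.7 and 182.3 CPM in healthy, 165.3 and 172.5 CPM in acute and 177.5 and 145.3 CPM in chronic libraries, a mean of 168.3 ± 13.0 CPM (SD, n = 6). Single members and H2afx varied more between the libraries. H2afx ran from 105.3 to 263.1 CPM, Blm from 8.25 to 23.4 CPM and Exo1 from 6.98 to 21.4 CPM. The sum of all 9 members ran from 250.6 to 429.9 CPM. In the healthy libraries these cells numbered only 52 and 33. Blm and Exo1 rested there on 11 and 7 UMIs over both libraries, so counting error is large. The sum of the 8 members without H2afx was 19.1 to 54.7 CPM in cells past the S threshold only, 24.6 to 66.0 CPM in cells past the G2/M threshold only and 12.9 to 17.9 CPM in non-cycling cells. For each of the 9 members, cells past both thresholds were higher than either other cycling class in all 6 libraries. Cells past both thresholds also had more UMIs, with a median of 7815 to 16483 per cell against 4724.5 to 9284.5 in cells past the G2/M threshold only, and the part of this depth in the levels was not tested.

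Taken over all cycling cells, the sum of the 8 members was 74.1 and 39.5 CPM in healthy, 137.2 and 119.8 CPM in acute and 78.0 and 105.0 CPM in chronic libraries. Healthy replicate 2 was lowest and also had the smallest share of cells past both thresholds, and acute replicate 1 was highest with the largest share. The part of this share in the sum was not tested. Over all urothelial cells the sum was 16.2 and 15.8, 60.3 and 28.5 and 20.9 and 25.7 CPM in the same order, and over non-cycling cells 13.5 and 14.6, 17.9 and 12.9 and 14 and 17.0 CPM.

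**Figure D2:**
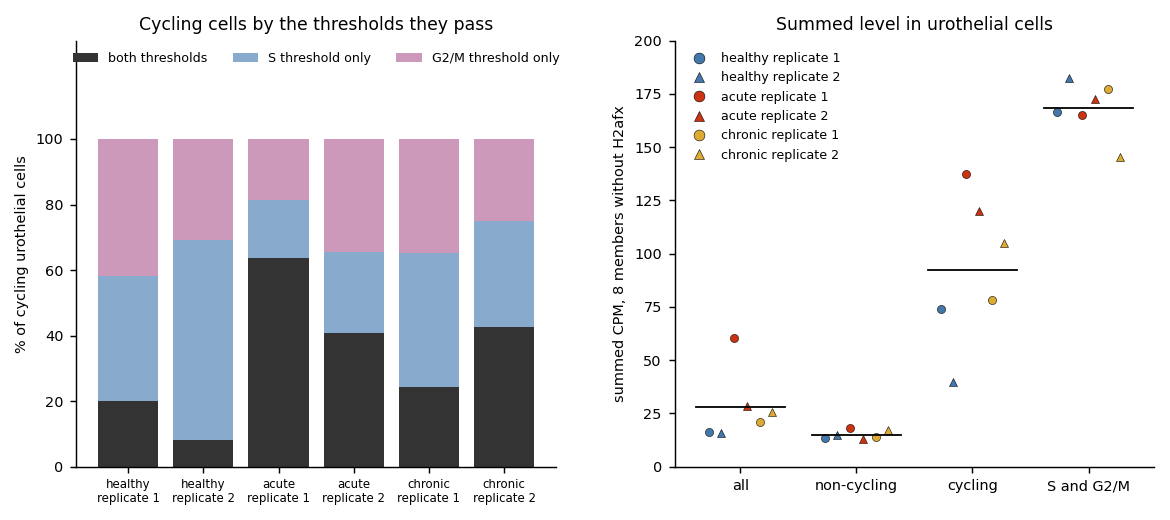
Left, percentage of cycling urothelial cells past both thresholds, the S threshold only or the G2/M threshold only in each library. Right, summed level of the 8 members without H2afx (CPM), with points for libraries and bars for means of 6 libraries, running from 39.5 to 137.2 CPM in cycling cells but from 145.3 to 182.3 CPM in cells past both thresholds.

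Within the cycle, cells past only the G2/M threshold were compared with cells past only the S threshold. Only 3 of the 9 members had enough UMIs to be tested and 1 was called, where 2.64% of 9523 genes were higher in G2/M. H2afx stood at 165.2 and 43 CPM in healthy, 57.3 and 64.5 CPM in acute and 28.1 and 36.2 CPM in chronic G2/M cells, and at 25.2 and 11.6, 18.9 and 33.0 and 19.5 and 18.5 CPM in S cells. G2/M was higher in all 6 libraries (log2 fold change 1.40, SE 0.18, edgeR adjusted p = 1.111e-06). Fancd2 was higher in G2/M in 5 of 6 libraries, at 16.4 and 8.19, 22.2 and 15.3 and 8.51 and 20.1 CPM against 8.41 and 6.35, 8.47 and 6.95 and 4.33 and 23.6 CPM. Its log2 fold change of 0.83 (SE 0.26) missed the threshold (adjusted p = 0.08397), whereas it passed without chronic replicate 2, the library with the high S level (1.07, adjusted p = 0.02742). Fanca did not pass (log2 fold change -0.33, adjusted p = 0.7549). Exo1, which was not tested, had 14 UMIs in S cells and 5 in G2/M cells over all libraries, fewer than a comparison needs.

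Cycling cells were next divided into basal cells, which carry keratins of the layer on the basement membrane, and luminal cells, which carry uroplakins. Over all urothelial cells 7.64% had basal and luminal scores within 0.1 of each other. Here 41.7% of 9919 genes differed, 21.1% being higher and 20.6% lower in basal cells. Of 8 members tested, H2afx was higher and Fanca lower, and the other 6 did not pass (log2 fold changes from -0.22 to 0.02). The members called are a smaller share than the 41.7% of all genes. H2afx was at 197.7 and 47.2 CPM in healthy, 164.2 and 244.0 CPM in acute and 94.6 and 122.7 CPM in chronic cycling basal cells, against 98.3 and 36.3, 64.9 and 116.5 and 62.3 and 62.2 CPM in cycling luminal cells. Basal cells were higher in all 6 libraries (log2 fold change 0.91, SE 0.11, edgeR adjusted p = 5.457e-07). Of the 54 G2/M genes 40 were higher in the basal cells too. Fanca measured 5.73 and 7.07, 12.3 and 5.75 and 11.0 and 10.4 CPM in basal and 11.6 and 6.48, 19.2 and 12.0 and 10.2 and 11.4 CPM in luminal cells of the 3 groups. The fall of 0.67 on the log2 scale (SE 0.22, adjusted p = 0.01792) was lost in DESeq2 (adjusted p = 0.1498) and with stricter cells (adjusted p = 0.08286), and basal cells were lower in 4 of 6 libraries.

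Other repair genes differed between these cells in both directions, 8 of 57 being higher and 4 lower in cycling basal cells, both smaller shares than those of all genes. Higher were Rev1 (log2 fold change 1.62, adjusted p = 2.251e-07) and Rev3l (0.99, adjusted p = 0.0004184), both of translesion synthesis, which copies past a lesion, and Sfr1, of recombination (0.86, adjusted p = 1.007e-07). Lower were the recombination gene Rad51d (-0.78, adjusted p = 0.0004711), the end-joining factor Paxx (-0.69, adjusted p = 0.002048) and Psmc3ip (-0.53, adjusted p = 0.02026). The call of Psmc3ip was lost in DESeq2 (adjusted p = 0.09531), without TMM factors (adjusted p = 0.05186), without the library block (adjusted p = 0.3669) and without acute replicate 1, acute replicate 2 or chronic replicate 2 (adjusted p = 0.07196, 0.05011 and 0.07168).

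Outside the cycle the members were compared between layers. In superficial against intermediate cells 27.4% of 12006 genes were higher, and of 5 members tested Fanca and H2afx were higher. So few members cannot be set apart from that share. Fanca stood at 2.24 and 5.17 CPM in healthy, 6.27 and 4.12 CPM in acute and 4.57 and 5.52 CPM in chronic superficial cells, against 1.77 and 3.27, 2.79 and 1.64 and 3.15 and 1.77 CPM in intermediate cells. It was higher in all 6 libraries (log2 fold change 1.02, SE 0.20, edgeR adjusted p = 0.0002142). H2afx measured 13.7 and 27.6, 14.9 and 27.6 and 31.6 and 18.4 CPM in superficial and 12.3 and 14.4, 15.3 and 19.0 and 16.6 and 11.9 CPM in intermediate cells and was higher in 5 of 6 libraries (0.63, SE 0.11, adjusted p = 7.54e-05). Superficial cells had a median of 10129 to 21543 UMIs per cell and intermediate cells 5932.5 to 11740, and the part of this was not tested. In basal against intermediate cells, where 20.1% of 12006 genes were lower, Fanca alone of 5 members was called, a share like that of all genes. Its level in basal cells was 0.577 and 0.827 CPM in healthy, 2.38 and 0.957 CPM in acute and 1.90 and 2.22 CPM in chronic libraries (-0.93, SE 0.26, adjusted p = 0.007281). Both healthy libraries and acute replicate 2 lay below the intermediate range, and without healthy replicate 2 the call was lost (-0.61, adjusted p = 0.09325). Fancd2 (-0.01 and -0.20), Brca1 (0.32 and -0.42) and Blm (0.27 and -0.34) did not pass in the superficial or the basal comparison, and neither did H2afx in the basal one (-0.06).

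**Figure D3:**
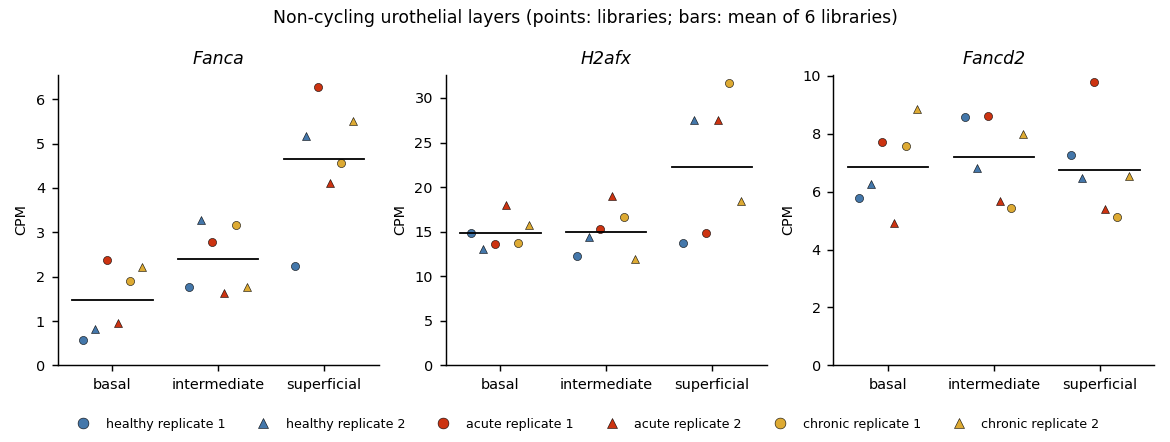
Level of Fanca, H2afx and Fancd2 (CPM) in non-cycling basal, intermediate and superficial urothelial cells, with points for libraries and bars for means of 6 libraries. Fanca spans 0.577 to 2.38 CPM in basal and 2.24 to 6.27 CPM in superficial cells, whereas Fancd2 spans 4.90 to 8.86 CPM in basal and 5.12 to 9.80 CPM in superficial cells.

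In these layers 64 other repair genes were tested. Against intermediate cells 14 were higher and 9 lower in superficial cells, where 27.4% of all genes were higher and 26.7% lower, and 11 were higher and 6 lower in basal cells, where 21% of all genes were higher and 20.1% lower. Each of these 4 counts is a smaller share than that of all genes. Superficial cells had more Usp1, which removes ubiquitin from Fancd2 (0.53, adjusted p = 0.0002352), Paxx (0.53, adjusted p = 1.447e-07) and Rad51d (0.44, adjusted p = 0.001003), and less Xrcc5 (-0.91, adjusted p = 2.667e-07), the Fanconi core subunit Faap100 (-0.63, adjusted p = 3.175e-06) and Rev3l (-0.45, adjusted p = 0.008722). Basal cells had more Rev1 (1.27, adjusted p = 2.674e-07), Rev3l (0.83, adjusted p = 1.602e-06) and Sfr1 (0.78, adjusted p = 3.703e-09), and less Rad51d (-0.48, adjusted p = 0.001526), Faap20 (-0.31, adjusted p = 0.0002592) and Paxx (-0.28, adjusted p = 0.0007007). Without the library block the superficial calls of Rad51d and Rev3l (adjusted p = 0.07253 and 0.1141) and the basal calls of Rad51d and Paxx (adjusted p = 0.1799 and 0.2062) were lost.

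Whether injury went with higher levels was asked first over all urothelial cells. None of the 9 members passed the adjusted threshold in edgeR for acutely injured against healthy libraries (0 of 9), and 0.00724% of 13816 genes did. At an unadjusted p under 0.05 edgeR gave 7 members and 6.49% of all genes, and DESeq2 called 6 of the 9, where it called 1.91% of genes higher. All 9 members had a positive log2 fold change, with a median of 1.91 against 0.00 over all genes. Rad51ap1 was at 0.517 and 0.307 CPM in healthy and 7.02 and 4.43 CPM in acute libraries (log2 fold change 3.79, SE 0.43, edgeR adjusted p = 0.139). Of its UMIs in the acute libraries 398 of 426 came from cycling cells. Exo1 measured 0.182 and 0.245 CPM in healthy and 2.97 and 0.932 CPM in acute libraries (3.15, SE 0.67, adjusted p = 0.1985), and 135 of its 144 acute UMIs were from cycling cells. Both genes lay above both healthy libraries in both acute libraries, though the acute libraries differed severalfold from each other in Exo1.

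The other members had smaller fold changes. Fanci went from 1.00 and 0.675 to 7.66 and 2.61 CPM (2.59, SE 0.59, edgeR adjusted p = 0.2364), Brca1 from 1.46 and 1.32 to 7.57 and 3.68 CPM (2.00, SE 0.41, adjusted p = 0.1803) and Brca2 from 1.19 and 1.04 to 5.43 and 3.03 CPM (1.91, SE 0.38, adjusted p = 0.1774). H2afx measured 18.8 and 16.4 CPM in healthy and 44.4 and 39.6 CPM in acute libraries (1.26, SE 0.20, adjusted p = 0.139), and Fanca 1.95 and 2.94 against 8.24 and 3.16 CPM (1.20, SE 0.47, adjusted p = 0.7193). For each of these 5 members acute replicate 1 was higher than acute replicate 2, as was its share of cycling cells. Without acute replicate 1 edgeR called 1 member, Rad51ap1 (3.49, adjusted p = 0.03169), and 0.614% of genes, and without acute replicate 2 it called 2, Rad51ap1 (4.01, adjusted p = 0.02622) and Exo1 (3.70, adjusted p = 0.04421), and 0.69% of genes. Blm (1.09) and Fancd2 (0.62) were the members outside the unadjusted threshold, and the Fancd2 levels of the groups overlapped.

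For chronically injured against healthy libraries none of the 9 members passed (0 of 9) and 0% of 13816 genes did in edgeR. At an unadjusted p under 0.05 edgeR gave 2 members and 7.38% of all genes, and DESeq2 called 1 member, Rad51ap1, where it called 0.666% of genes higher. The median log2 fold change of the members was 0.87, against 0.00 over all genes, and all 9 were positive. Rad51ap1 had 1.60 and 1.79 CPM (2.05, SE 0.42, edgeR adjusted p = 0.445), and Brca1 2.38 and 3.20 CPM (1.02, SE 0.40, adjusted p = 0.6545). Both chronic libraries lay between the healthy and the acute libraries for Rad51ap1 and for Brca1. The log2 fold changes of the other 7 ranged from 0.18 to 1.05. Acute and chronic libraries were compared with the same healthy libraries, so the comparisons are not independent.

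**Figure D4:**
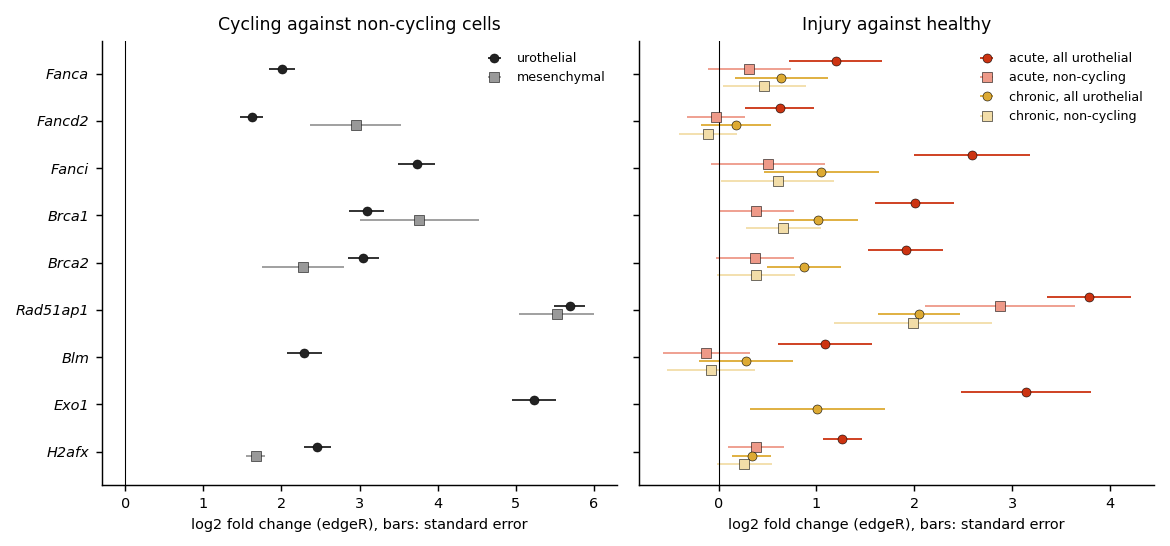
Log2 fold changes of the members from edgeR, with bars for the standard error, for cycling against non-cycling cells (left) and injured against healthy libraries (right). Members that were not tested have no point, and Rad51ap1 lies at 5.69 in urothelial cycling cells, at 3.79 for acute injury in all urothelial cells and at 2.88 in non-cycling cells.

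In non-cycling cells alone, 8 members had enough UMIs to be tested and 0 of 8 passed in edgeR for either injury, as did 0% of 13685 genes. At an unadjusted p under 0.05 edgeR gave 1 member in each comparison, against 3.16% of genes for acute and 6.89% for chronic injury. DESeq2 called 0 of 8 in both, where it called 0.161% and 0.672% of genes. The median log2 fold change of the members was 0.38 for acute and 0.43 for chronic injury. Rad51ap1 was that member, at 0.0954 and 0.0323 CPM in healthy, 0.342 and 0.606 CPM in acute and 0.273 and 0.248 CPM in chronic libraries. Its log2 fold change was 2.88 for acute (SE 0.77, adjusted p = 1.0) and 1.99 for chronic injury (SE 0.81, adjusted p = 0.7187). These levels rest on 4 UMIs in healthy, 28 in acute and 15 in chronic libraries. The other 7 ranged from -0.12 to 0.51 for acute and from -0.11 to 0.66 for chronic injury.

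In cycling cells 0 of 9 members passed for acute injury, where 0.0452% of 11060 genes did in edgeR, although all 9 were positive (median 1.10). At an unadjusted p under 0.05 edgeR gave 4 members and 12.57% of genes, and DESeq2 called 0 of 9 and 1.38% of genes. The 4 were Rad51ap1 (1.61, SE 0.38, adjusted p = 0.1924), Fanci (1.502, SE 0.52, adjusted p = 0.2958), Brca2 (1.47, SE 0.37, adjusted p = 0.2037) and Brca1 (1.32, SE 0.53, adjusted p = 0.3584), and the other 5 ranged from 0.44 to 1.10. An alternative added after the data were seen used only cells past both thresholds. The same 4 log2 fold changes there were 0.41, 0.24, 0.56 and -0.059. For the other 5 members acute means were lower than healthy ones, with overlapping levels. They were 15.8 against 22.5 CPM for Fanca, 32.4 against 35.6 CPM for Fancd2 and 14.4 against 17.1 CPM for Blm. Exo1 had 9.37 against 14.6 CPM and H2afx 174.9 against 228.1 CPM. The healthy values came from 52 and 33 cells, and fold changes of these 5 were not recorded. For chronic injury 0 of 9 passed, as did 0% of 11060 genes, and Rad51ap1 (0.96, adjusted p = 0.3642) and Brca2 (0.95, adjusted p = 0.3594) had an unadjusted p under 0.05, against 12.81% of genes. The other 7 ranged from -0.36 for H2afx to 0.80 for Fancd2. DESeq2 called 0 of 9 there and 1.72% of genes. With only cells past both thresholds these were 0.22 and 0.71. The share of cycling cells past both thresholds was 8.17% and 20.2% in the healthy libraries and 24.4% to 63.8% in the injured ones. Basal cells made up 53.9% and 58.4% of cycling cells in healthy, 49.8% and 36.4% in acute and 15.6% and 27.8% in chronic libraries. Cells with superficial markers made up 6.59% and 3.96%, 36.3% and 31.7% and 22.0% and 35.8%. The latter came from the superficial sub-clusters and from a further, cycling sub-cluster with high superficial markers. The cycling classes compared thus came from different layers in the 3 groups, and the part of this in the fold changes was not tested.

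The difference between acute and healthy libraries in the cycling effect itself was tested with an interaction term, and 0 of 9 members passed, where 3.27% of 13639 genes did. At an unadjusted p under 0.05 edgeR gave Fancd2 (0.91, SE 0.30, adjusted p = 0.09717), Blm (1.26, SE 0.51, adjusted p = 0.2208) and Brca2 (1.16, SE 0.50, adjusted p = 0.2537), and 14.85% of all genes. Rad51ap1 (-1.14) and Exo1 (-0.16) had negative values, and the other 4 ranged from 0.17 to 1.06. Without healthy replicate 1 edgeR called 3 members, H2afx (1.30, adjusted p = 0.0006807), Brca1 (2.66, adjusted p = 0.02033) and Blm (2.13, adjusted p = 0.04827), and 3% of genes. Without chronic replicate 2 it called 1, Fancd2 (0.88, adjusted p = 0.0468), and 4.22% of genes. DESeq2 called 0 of 9 and 1.43% of genes.

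The stroma was represented by mesenchymal-like cells, 97 to 372 of them cycling in 5 libraries, while chronic replicate 2 had 8 and was left out of this comparison. Of 5 members tested all rose in cycling mesenchymal cells, where 5.02% of 10728 genes rose. Rad51ap1, Brca1, Brca2 and Fancd2 had means of only 0.36, 1.06, 1.18 and 1.97 CPM in non-cycling mesenchymal cells. Members this low meet the filter on low counts through their cycling sums. The count of 5 was thus largely set by the filter and is not support for a rise of the list. Rad51ap1 had 23.8 and 8.69 CPM in healthy and 10.6 and 34.6 CPM in acute cycling mesenchymal cells and 8.68 CPM in those of chronic replicate 1, against 0 to 1.10 CPM in non-cycling cells. Its 8.69 and 8.68 CPM rested on 3 UMIs each. The log2 fold change was 5.52 (SE 0.48, edgeR adjusted p = 4.59e-12), and all 5 libraries were higher. H2afx stood at 134.2 and 81.1, 111.6 and 177.2 and 63.6 CPM in the same cells and at 25.5 to 48.5 CPM in non-cycling mesenchymal cells (1.67, SE 0.12, adjusted p = 3.645e-14). Its level outside the cycle was higher than the 12.9 to 20.4 CPM of non-cycling urothelial cells in every library, which was not tested. Brca2 measured 9.79 and 5.79, 5.31 and 6.92 and 8.68 CPM and was higher in 5 of 5 libraries (2.28, SE 0.52, adjusted p = 0.002336). These Brca2 levels rested on 7 and 2, 2 and 8 and 3 UMIs, so counting error is large. Fancd2 (2.95, SE 0.58, adjusted p = 0.0003331) was higher in 4 of 5 libraries and Brca1 (3.77, SE 0.76, adjusted p = 0.0004899) in 3 of 5. In cycling mesenchymal cells Brca1 had 0 UMIs in healthy replicate 2 and chronic replicate 1, which allows up to 8.69 and 8.68 CPM, and Fancd2 had 0 in healthy replicate 2. Leaving the library out of the model as a block reduced the members called to 2.

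Fanca, Fanci, Blm and Exo1 were not tested in the mesenchymal comparison. Their summed UMIs were too few, with 0 to 7.97 CPM in cycling mesenchymal cells. Of 56 other repair genes 14 rose and 0 fell, where 5.02% of all genes rose and 3.17% fell. The same filter on low counts selected these genes, so their count was partly set by it and is not support either. Among the 14 were Ube2t (4.57, adjusted p = 1.834e-14) and Psmc3ip (1.99, adjusted p = 4.124e-08). Injured and healthy mesenchymal cells were compared for Fancd2, Brca1 and H2afx, and 0 of 3 passed for either injury, as did 0% of 11856 genes. Their log2 fold changes ranged from 0.04 to 1.85 for acute and from -0.79 to 1.25 for chronic injury. Their unadjusted p in edgeR ranged from 0.063 to 0.91 over both comparisons. DESeq2 called 0 of 3, where it called 0.169% of genes for acute and 0.202% for chronic injury. H2afx over all mesenchymal cells was 56.4 and 37.6 CPM in healthy, 45.7 and 50.4 CPM in acute and 31.9 and 24.1 CPM in chronic libraries, with both chronic libraries lowest.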

How the data were processed

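Per the labels and the methods of the paper, the authors prepared 10x Genomics libraries, aligned them to mm10 and counted UMIs with Cell Ranger, and deposited raw counts (UMIs per gene and cell) as 1 table per library. The last line of 1 table, healthy replicate 1, is incomplete, and acute replicate 2 was counted with a newer annotation. Sums therefore used the 14338 genes that the 6 tables share once those of mitochondria and ribosomes are set aside. The members, lists and tests were chosen with earlier results of these data known.

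Cells were required to have more than 500 genes and less than 10% of UMIs from mitochondria. Doublets were called with Scrublet in scanpy 1.11.5 at a rate set by the number of cells (4.28% to 11.1% of a library), and 1 cluster rich in doublets was left out. Libraries were normalized with sctransform 0.4.2 and integrated with Seurat 5.3.0 over 3000 features, from which 85 repair genes were kept out. Cells were clustered with the Leiden method in scanpy, in its igraph form. Clusters were named from markers. Cycling cells were called from 37 S phase and 54 G2/M genes, without the 6 repair genes of the S phase list. Basal and luminal cells were divided by the higher of 2 scores, and non-cycling superficial cells came from 2 sub-clusters. Cycling cells with superficial markers also took in a further sub-cluster, in which 99.1% of cells were cycling. Classes of at least 20 cells were summed per library and compared in 15 tests with edgeR 4.0.16 (TMM, filterByExpr, quasi-likelihood test) in R 4.3.3, with a library block where both classes came from the same libraries. All 3 groups shared 1 estimate of the spread. On simulated sums with 200 genes changed 4-fold, edgeR recovered 96% for cycling against non-cycling cells (13639 genes), with 18 unchanged genes called. For acute against healthy urothelial cells (13816 genes) it recovered 73.5%, with 8 unchanged genes called. In the real data Fanci, Exo1 and Rad51ap1 had folds of 6.02, 8.84 and 13.8 in that comparison and were not called. The simulated recovery therefore cannot be read as the power for these members.

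Every member is named in every comparison it is tested in, by value where its unadjusted p was below 0.05 and otherwise by range. Of 76 other repair genes a comparison names at most the 3 largest rises and 3 largest falls among those called with a mean of at least 5 CPM. Of the genes this rule picks, 1 is not reported here. Alternatives were DESeq2 1.42.0, no TMM factors, no filter on low counts, stricter cells, doublets kept, no integration, 4 MADs, the full 43 S phase genes, a stricter non-cycling class, other blocks and each library left out. Promoters of Fancd2, Fanci, Brca1, Blm, Exo1 and H2afx are not shown.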

Additional observations from a re-analysis of the deposited data

Results flagged for a closer look

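The interaction term, which compares the cycling effect in acute with that in healthy libraries, called no member but did call 4 of 76 other repair genes, where it called 3.27% of all genes (edgeR's quasi-likelihood test, adjusted over 13639 genes). The 3 with the largest values follow, and the other was Rad50, of the complex that binds broken ends (0.69, adjusted p = 0.01661). Polk, a polymerase that copies past lesions, was at 12.2 and 9.88 CPM in cycling cells of the healthy libraries and 38.1 and 30.5 CPM in those of the acute libraries. In non-cycling cells it was at 15.7 and 13.3 CPM in healthy and 23.1 and 16.6 CPM in acute libraries. The cycling effect was larger in the acute libraries by 1.21 on the log2 scale (SE 0.25, adjusted p = 0.005621). Rad18, the ubiquitin ligase that switches forks to translesion synthesis, stood at 12.9 and 6.18 CPM in healthy and 32.1 and 24.5 CPM in acute cycling cells, against 2.61 to 3.72 CPM in the non-cycling cells of these libraries (difference 1.36, SE 0.35, adjusted p = 0.0273). Topbp1, an activator of the Atr checkpoint, measured 40.8 and 29.6 CPM in healthy and 61.7 and 50.3 CPM in acute cycling cells, against 12.7 to 17.0 CPM in non-cycling cells (difference 0.74, SE 0.19, adjusted p = 0.02971). DESeq2 did not call Rad18 (adjusted p = 0.1268) or Topbp1 (adjusted p = 0.2021). Without healthy replicate 2 none of these 3 was called, with adjusted p of 0.06046 for Polk, 0.4118 for Rad18 and 0.3446 for Topbp1. Polk was also lost without healthy replicate 1 (adjusted p = 0.053). Rad18 and Topbp1 were lost with stricter cells (adjusted p = 0.07239 and 0.06737) and without acute replicate 1 (adjusted p = 0.08096 and 0.05133), and Topbp1 without acute replicate 2 (adjusted p = 0.06444). With 4 MADs the difference fell to 0.74 for Rad18 (adjusted p = 0.569) and to 0.46 for Topbp1 (adjusted p = 0.598). Without the library block none of the 3 was called. The share of cells past both thresholds was higher in the acute than in the healthy libraries, and its part in these differences was not tested.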

How the results depend on the processing

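The 15 counts of members called were recomputed under each alternative that could be fitted. Of the recomputed counts 206 stayed within 1.5 times the reported ones and 19 did not. Counts of 0 that stayed 0, as in many injury comparisons, are among the 206 and show no stable call. In cycling basal against luminal cells the 2 members became 1 with DESeq2, 1 with stricter cells, 0 without the library block and 1 to 2 with 1 library left out. In G2/M against S phase cells the 1 member became 2 without a filter on low counts, 2 with doublets kept, 2 with 4 MADs and 1 to 2 with 1 library left out. For acute injury in all urothelial cells 0 became 6 with DESeq2 and 0 to 2 with 1 library left out, and for chronic injury 0 became 1 with DESeq2. In basal against intermediate cells 1 became 0 without the library block and 0 to 1 with 1 library left out. For the interaction 0 became 1 with 4 MADs and 0 to 3 with 1 library left out. In cycling mesenchymal cells 5 became 2 without the library block. Signs were followed only for members with an unadjusted p under 0.05 and for the named repair genes. Of these, Brca1 alone changed sign, from 1.32 to -0.059 in acute cycling cells when only cells past both thresholds were used. Without the library block the calls of H2afx (adjusted p = 0.05406), Fanca (0.1786) and Paxx (0.08026) in cycling basal against luminal cells and of Fanca in basal against intermediate cells (0.1034) were lost. The causes were not tested.

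With the replicate block, 0 members were called in each of the 8 injury comparisons. The deviations of samples with the same number had r = 0.141 for healthy and acute urothelial cells. For healthy and chronic r was -0.301 and for acute and chronic -0.064, and the numbers were not taken as pairs. With 2 libraries per group these r cannot show whether libraries of different groups shared a batch. The paper states that its samples were handled and sequenced in batches, which the labels do not name. The crossed pairing, added after the data were seen, called 0 members in 4 chronic comparisons. Low UMI counts left 6 of the 9 members untested in G2/M against S phase cells, and 4 of the 9 in each comparison of layers and in cycling mesenchymal cells.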

Other observations

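The genes outside all lists whose level followed that of the members most closely were Nrm (Pearson r = 0.964), Incenp (0.963), Lig1 (0.955), Knstrn (0.952) and Iqgap3 (0.951). The measure compared log2(CPM + 1) of a gene with the mean z score of the members over 35 sums of library and class, which share libraries and divide into cycling and non-cycling cells, so it is a description with no test. Among the members, Fanci followed the other 8 most closely (r = 0.930) and H2afx least (r = 0.749). Macrophage-like cells, sorted by no cycle call, held 63.8 to 164.5 CPM of H2afx, a wider range than the 12.9 to 20.4 CPM of non-cycling urothelial cells.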
